A study of Mus musculus with 7 samples.

Results

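The genes that pass the RANKL signal to osteoclast (OC) precursors, and the genes that limit it, were followed through the PU.1 and MITF peaks around them. The 5 genes were Tnfrsf11a, Traf6, Tnfsf11, Tnfrsf11b and Lgr4. A peak was counted for a gene when its centre lay in the gene or within 50 kb of either end on the mm9 genome, with GENCODE gene models of the same build. In the 6 PU.1 and MITF peak lists 117 of 238652 peaks met this rule.

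In ChIP-Seq, chromatin bound by a protein is pulled down with an antibody and sequenced, and places where the fragments (tags) accumulate are called as peaks. Marrow of C57BLACK6 mice aged 4 to 6 weeks was grown in CSF1 (50 ng per mL) over 3 days, which gave the myeloid precursors (MPs). MPs were then given 100 ng per mL RANKL in that medium for 36 h or for 72 h, and the 72 h cells are the OCs. PU.1 and MITF were each precipitated with 5 µg of antibody in MPs, at 36 h and in OCs, and non-specific IgG was used in MPs. No allele or transgene is given in the labels, all groups share the CSF1 culture, and the number of mice behind a library is not given in the sources used here. Each condition had 1 library, so every test below compares libraries rather than conditions, its error covers counting only, and there is no replicate check.

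RANK, the product of Tnfrsf11a, is the receptor on myeloid precursors through which RANKL (Tnfsf11) drives OC formation. TRAF6 (Traf6) is the adaptor that binds the cytoplasmic tail of RANK and carries the signal towards NF-κB and MAP kinases. Osteoprotegerin (Tnfrsf11b) is a soluble decoy that binds RANKL away from RANK, and LGR4 (Lgr4), a receptor for R-spondins, also binds RANKL and limits the signal. RANKL and osteoprotegerin are made in bone mainly by cells of the osteoblast and stromal lineage. PU.1 is an ETS factor of the myeloid lineage that binds a purine-rich sequence with the core GGAA, and MITF is a basic helix-loop-helix factor that binds E-boxes such as CACGTG.

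The sequences under the highest PU.1 peak of 4 of the loci are printed here as the strongest site of each, together with the site of the highest MITF peak and the single PU.1 site that passed the test. They are from mm9, plus strand, named by distance of the peak centre from the gene start. Capitals mark the ETS core GGAA, or TTCC where it lies on the other strand, and the whole 8 letters where the extended form GAGGAAGT, or its reverse complement, is present.
Tnfrsf11a, -33352 bp, chr1:107643873-107644023: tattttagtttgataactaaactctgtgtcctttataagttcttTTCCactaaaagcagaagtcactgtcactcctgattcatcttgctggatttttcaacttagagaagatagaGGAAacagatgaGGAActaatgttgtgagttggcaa
Tnfrsf11a, 6544 bp, chr1:107683769-107683919: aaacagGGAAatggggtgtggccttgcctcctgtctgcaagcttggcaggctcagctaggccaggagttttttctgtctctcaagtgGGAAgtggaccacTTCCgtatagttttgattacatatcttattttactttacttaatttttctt
Tnfrsf11a, 20652 bp, chr1:107697877-107698027: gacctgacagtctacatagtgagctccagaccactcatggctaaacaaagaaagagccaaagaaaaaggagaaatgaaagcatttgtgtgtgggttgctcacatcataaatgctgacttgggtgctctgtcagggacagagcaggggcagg
Traf6, -27390 bp, chr2:101491121-101491271: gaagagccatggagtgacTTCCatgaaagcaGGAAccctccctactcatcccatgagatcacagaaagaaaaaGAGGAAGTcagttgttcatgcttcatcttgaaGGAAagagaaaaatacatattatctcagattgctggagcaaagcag
Tnfsf11, -22798 bp, chr14:78730573-78730723: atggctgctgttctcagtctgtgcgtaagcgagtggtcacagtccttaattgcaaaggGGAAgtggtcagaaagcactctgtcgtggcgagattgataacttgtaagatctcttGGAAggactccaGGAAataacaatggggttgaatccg
Tnfrsf11b, -16280 bp, chr15:54126224-54126414: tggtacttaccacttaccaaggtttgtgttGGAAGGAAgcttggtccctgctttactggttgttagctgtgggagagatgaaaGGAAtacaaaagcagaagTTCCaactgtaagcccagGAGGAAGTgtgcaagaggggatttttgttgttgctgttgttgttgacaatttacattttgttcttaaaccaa

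The printed Tnfrsf11a sequences at -33352 bp and 6544 bp, where MITF was also found, held 3 GGAA cores each over both strands. The Tnfrsf11a site at 20652 bp held 0. The Traf6 sequence held 4 cores, the Tnfsf11 sequence 3 and the Tnfrsf11b sequence 5, and the Traf6 and Tnfrsf11b sequences each held 1 GAGGAAGT. Searched on both strands within 151 bp around the centre of the highest peak, GGAA was present at 47 of the 48 PU.1 sites of the 5 loci, against 99% of all MP peaks, 99.1% at 36 h and 99.2% in OCs. GAGGAAGT, which contains the core, was present at 13 of the 48 sites (27.1%), against 22.1% to 22.5% of all peaks of the 3 lists. At the receptor gene it was present at 3 of 24 sites and at Traf6 at 5 of 11. The E-box CACGTG was found at 0 of the 48 PU.1 sites and 0 of the 4 MITF sites, while 2.45% to 2.59% of all PU.1 peaks of the 3 lists and 1.87% to 2.3% of all MITF peaks held it. CATGTG was found at 4 of the 48 (8.33%), against 10.9% to 11.3% of all PU.1 peaks. Tnfrsf11a 20652 bp was the site without the core, which was missing from the listed peak of all 3 libraries. Peaks of at least the same 58 tags without GGAA were 51 of 7802 in MPs (0.654%).

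With the 50 kb window the receptor gene had the most PU.1 sites, the adaptor gene came next, and the ligand and decoy genes had few. Sites are PU.1 peaks of the 3 lists joined where they overlap by at least 1 bp, and the 5 loci held 48 of 102370. Tnfrsf11a had 24 sites, or 14.35 per 100 kb, against a median of 6.65 over 22367 protein-coding genes with the same window. That density was at percentile 88.75 of those genes. Traf6 had 11 sites (8.93 per 100 kb, percentile 64.81), Lgr4 8 (4.07, percentile 34.58), Tnfsf11 3 (2.30, percentile 25.05) and Tnfrsf11b 2 (1.56, percentile 20.94). The order of the receptor and adaptor above the other 3 genes was the same in each library, with 18, 19 and 21 peaks at Tnfrsf11a and 9, 9 and 11 at Traf6 in MPs, at 36 h and in OCs. The number of peaks was 3, 1 and 1 at Tnfsf11, 1, 2 and 1 at Tnfrsf11b, and 3, 3 and 7 at Lgr4. These percentiles are descriptions, and differences between loci were not tested.

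**Figure D1:**
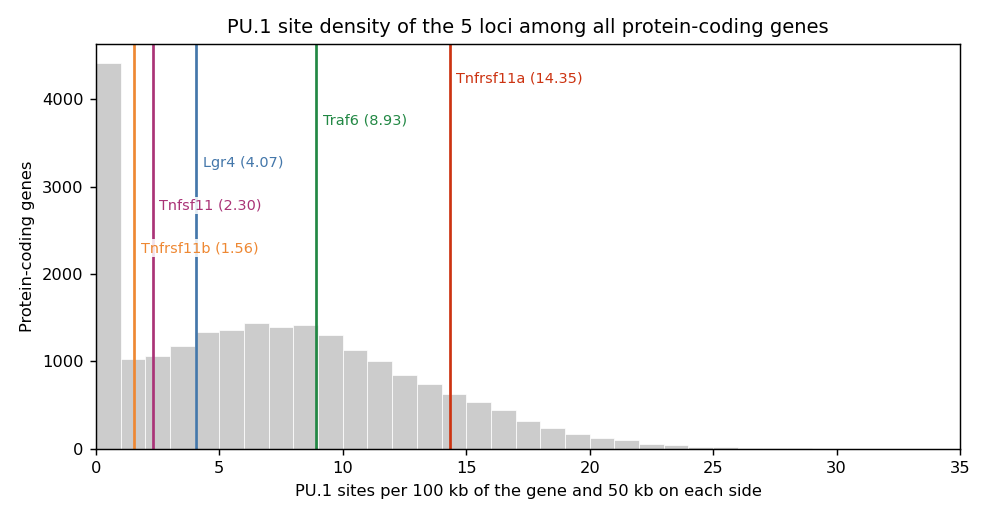
PU.1 sites per 100 kb of each protein-coding gene with 50 kb on each side (grey bars, number of genes per bin), with a coloured line at each of the 5 genes. Tnfrsf11a (14.35) lies to the right of most genes, Traf6 (8.93) just above the median of 6.65, and Lgr4, Tnfsf11 and Tnfrsf11b below it.

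Before RANKL 34 of the 48 sites were already listed, and 74.5% of all PU.1 sites of the genome were in the MP list. Of the 48 sites 27 (56.2%) were in all 3 PU.1 lists, against 50.5% of all PU.1 sites of the genome. By gene this was 15 of 24 sites at Tnfrsf11a, 8 of 11 at Traf6, 2 of 8 at Lgr4, 1 of 3 at Tnfsf11 and 1 of 2 at Tnfrsf11b. The 14 sites found in 1 list alone were weak, with a median of 8 tags and at most 15, and the lists themselves begin at 6 tags in MPs and 7 at 36 h and in OCs. A site missing from a list was not called there, which is not a measured absence. Of these 14 sites 5 were in MPs alone, 2 at 36 h alone and 7 in OCs alone, shares of all sites that were 11.1%, 9.03% and 10.3% over the genome.

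Marker genes were read from PU.1 peaks only, since expression was not part of these files. Cells without PU.1 add no PU.1 peaks, so these counts cannot show the identity or purity of the cells. All 8 myeloid marker genes, among them Csf1r and Cd68, had a PU.1 peak within 1 kb of an annotated start in each of the 3 lists, and 2, 1 and 2 of 8 osteoblast and stroma markers did. The share of all protein-coding genes was 35.3%, 37.1% and 37.9%. The IgG library had 1 peak in the 5 loci, of 7 tags at 46378 bp from the start of Tnfrsf11a and more than 13 kb from any PU.1 peak. The peak scores imply libraries of 5860000 to 10270000 tags for PU.1 and MITF and 3120000 for IgG, if HOMER's default scale of 10000000 tags was used. A score is the number of tags times a fixed worth of 1 tag, 1.71, 1.48 and 1.47 for PU.1 in MPs, at 36 h and in OCs, and 1.04, 0.973 and 1.14 for MITF, so tags are given below and scores where libraries are set side by side.

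At the receptor gene, PU.1 was strongest in an intron near the 5' end of the gene and at a group of sites upstream. Tnfrsf11a lies at chr1:107677300-107744558 on the plus strand. The intron site at 6544 bp had 90 tags in MPs, 99 at 36 h and 109 in OCs. Its scores of 153.5, 146.3 and 160.1 placed it among the highest 4.24%, 3.15% and 2.69% of the PU.1 peaks of the 3 lists. From MPs to OCs the log2 change was 0.08 (95% Clopper-Pearson interval -0.33 to 0.50), measured against the median ratio of all matched pairs, so a change of over 1.5-fold lies outside the interval. All 3 libraries were high there and did not differ beyond counting error. The highest PU.1 score of the whole window was 160.3, in MPs at -33352 bp. With the same window 78.11% of protein-coding genes had a lower highest score.

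The upstream group lay in introns of 2310035C23Rik, a neighbouring gene of the annotation. The site at -33352 bp had 94, 83 and 80 tags in MPs, at 36 h and in OCs, that at -38056 bp had 85, 66 and 60, and that at -33957 bp had 67, 50 and 53. MPs were highest at all 3. At -38056 bp the fall from MPs to OCs was -0.69 on the log2 scale (interval -1.20 to -0.20), with p = 0.00452 by the exact binomial test and a Benjamini-Hochberg adjusted p of 0.273 over all 60100 pairs, and so it did not pass. At -33352 bp the log2 change was -0.42 (interval -0.87 to 0.02), also short of the threshold.

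Close to the start, PU.1 tags were fewer. The site nearest to the start, at -771 bp, had 6 tags in MPs, 12 at 36 h and 18 in OCs, and 15 tags were listed at -2464 bp in OCs alone. The log2 change at -771 bp from MPs to OCs was 1.39 (interval -0.003 to 3.01), with an exact binomial p of 0.0399 and an adjusted p of 0.59, so the rise in tags was not separable from counting error over all pairs. The intron site at 1234 bp had 23, 22 and 40 tags. Over the 35.4 kb from -2464 bp to the intron site at 32765 bp, which holds the gene start, the lists had 9, 9 and 10 peaks with summed scores of 448.5, 427.1 and 515.4. Both limits of this stretch are OC peaks, and the first of them is listed in OCs alone, so the tenth OC peak is there by construction. The 15 Tnfrsf11a sites of all 3 lists together had scores of 982.4, 792.3 and 884.0, and 576, 536 and 602 tags. Scores follow library size, while the tests use the median ratio of all pairs. For PU.1 at 36 h against MPs these ratios were 1.15 and 1.06, so the score of a typical pair was lower at 36 h.

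**Figure D2:**
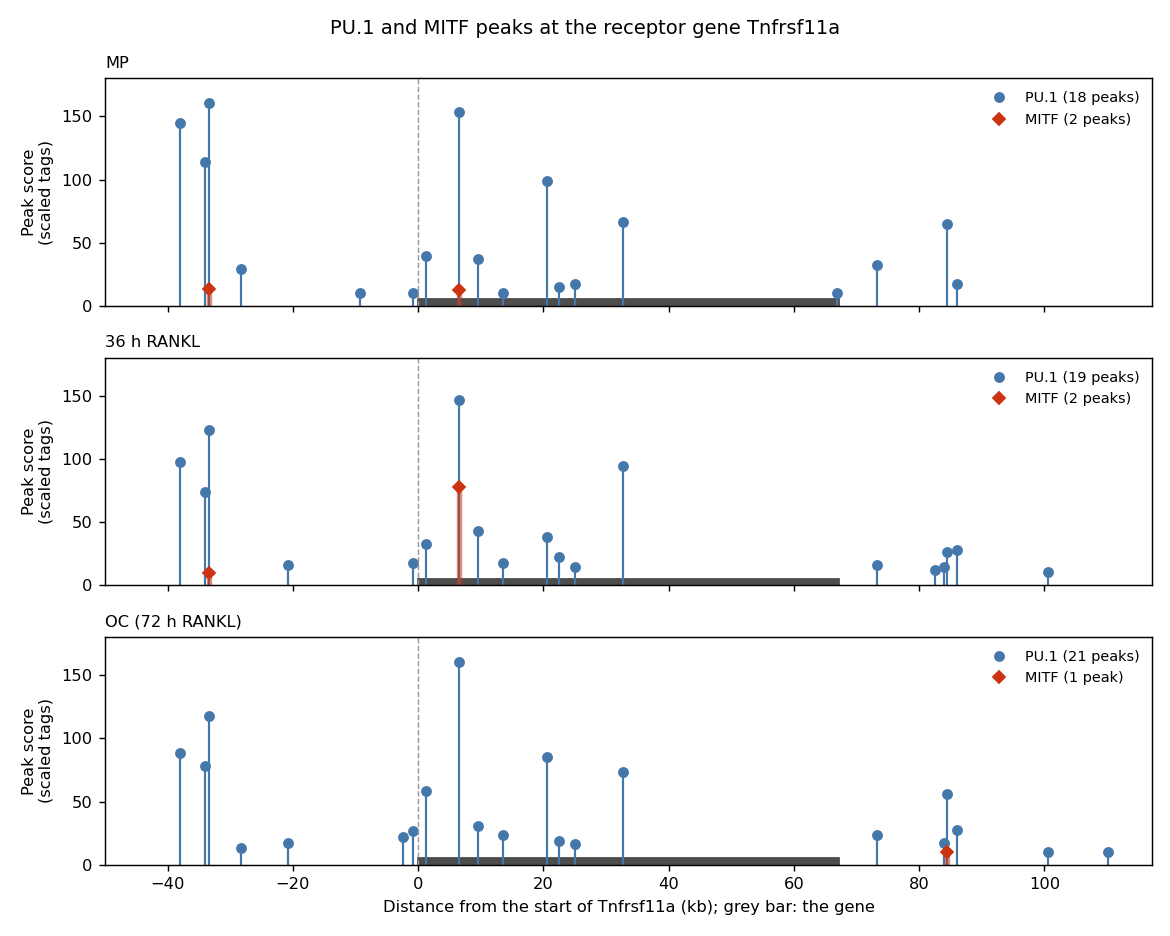
Score of each PU.1 (blue) and MITF (red) peak by distance from the start of Tnfrsf11a, in MPs, at 36 h of RANKL and in OCs, with the gene as a grey bar. The tall PU.1 peaks upstream and at 6544 bp are present in all 3 libraries, and the MITF peak at 6554 bp has a score of 12.5 in MPs and 77.9 at 36 h and is not listed in OCs.

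A PU.1 site further into the gene was lower at 36 h than before or after. At 20652 bp, in an intron of Tnfrsf11a, PU.1 had 58 tags in MPs, 26 at 36 h and 58 in OCs. The 36 h library was the low one. PU.1 peaks were 190 bp wide in that library and 150 bp in the others, and the part of width in the result was not tested. From MPs to 36 h the log2 change was -1.24 (interval -1.97 to -0.55), with p = 0.000177 and a Benjamini-Hochberg adjusted p of 0.023 by the exact binomial test. This was the only pair called among 27 in the 5 loci. Called means an adjusted p under 0.05 and a change of at least 2-fold. Of all 56340 pairs 1.05% were called, 0.341% higher and 0.712% lower at 36 h. An unadjusted exact binomial p under 0.05 was found for 6165 of these 56340 pairs. In the loci the interval excluded no change at 4 of the 27 pairs. From 36 h to OCs the log2 change was 1.04 (interval 0.35 to 1.77), with an exact binomial p of 0.00205 and an adjusted p of 0.306, which did not pass. The site at 84399 bp, beyond the 3' end of the gene, had a similar course of 38, 18 and 38 tags that passed neither test (adjusted p of 0.144 and 0.617, exact binomial test). At 32765 bp the order was the other way, with 39, 64 and 50 tags, a log2 change to 36 h of 0.63 (interval 0.04 to 1.24) and an adjusted exact binomial p of 0.37.

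In the later comparisons 0 of 32 pairs of the 5 loci were called from 36 h to OCs and 0 of 29 from MPs to OCs. The background was 0.0707% of all pairs from 36 h to OCs (0.0224% higher and 0.0483% lower in OCs) and 0.156% from MPs to OCs (0.0682% higher and 0.0882% lower), and an unadjusted exact binomial p under 0.05 was found for 3741 of 58013 and 4709 of 60100 pairs. In the loci the interval excluded no change at 2 of 32 and 1 of 29 pairs. The median log2 change over the pairs of the loci was 0.06 from MPs to 36 h, -0.03 from 36 h to OCs and -0.06 from MPs to OCs, where 0 is the median of all pairs.

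**Figure D3:**
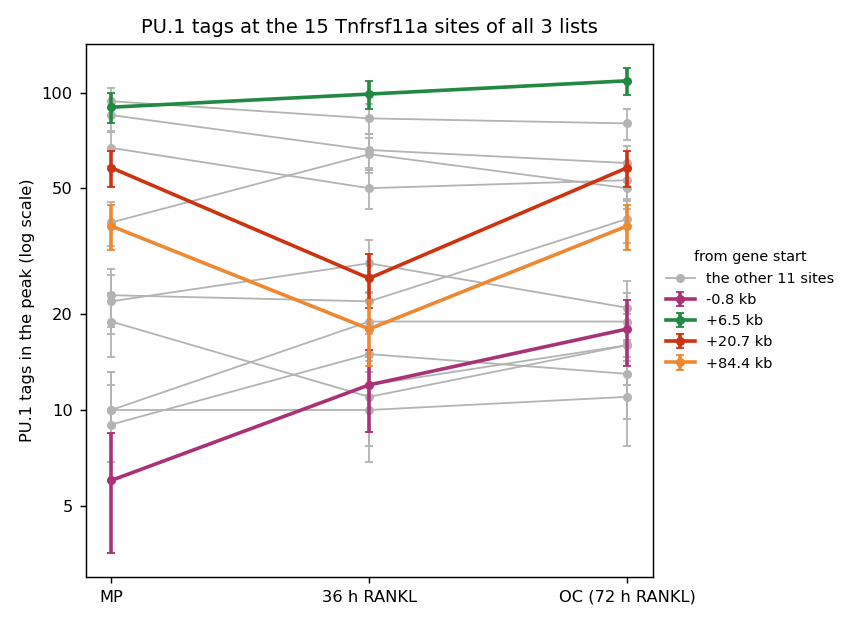
PU.1 tags in the peak (log scale) in the MP, 36 h and OC libraries at the 15 Tnfrsf11a sites found in all 3 lists, with bars of 1 square root of the count. The site at 20652 bp (red) falls from 58 to 26 tags at 36 h and is at 58 in OCs, the site at 6544 bp (green) stays at 90 to 109, and the site at -771 bp (purple) has 6, 12 and 18.

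MITF was found at 3 Tnfrsf11a sites and 1 Traf6 site, and the other 3 genes had none, as did 59.8% of 22350 protein-coding genes with the same window. Each MITF peak overlapped a PU.1 peak called at the same stage. That held for 3 of 3 peaks in MPs, 3 of 3 at 36 h and 2 of 2 in OCs, against 97.9%, 93.8% and 93.3% of all MITF peaks. The highest was at 6554 bp in the receptor gene, on the strong PU.1 site whose sequence is the second printed above. It had 12 MITF tags in MPs and 80 at 36 h and was not listed in OCs, where the list begins at 8 tags. The 36 h peak was number 271 of 3540 by score. Of the 275 MITF peaks at 36 h with at least 80 tags, 247 (89.8%) were listed in OCs and 246 (89.5%) in MPs, and this one was among the 28 without an OC peak. PU.1 at the site had 109 tags in OCs. Of all PU.1 peaks at least as high as the one there, 77.9% in MPs, 67.2% at 36 h and 72.4% in OCs overlapped a MITF peak.

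The MITF tags at 6554 bp passed the test from MPs to 36 h, with a log2 change of 1.94 (interval 1.06 to 2.95) and a Benjamini-Hochberg adjusted p of 2.53e-05 by the exact binomial test. It was 1 of 3 pairs of the loci, and 15.2% of all 2509 pairs were called, 9.8% higher and 5.38% lower at 36 h. An unadjusted exact binomial p under 0.05 was found for 743 of these 2509 pairs. With the ratio of library sizes in place of the median ratio the log2 change at 6554 bp was 2.64 (interval 1.76 to 3.66, adjusted exact binomial p of 3.18e-11). MITF peaks of MPs and OCs were 150 bp wide, and those at 36 h were 150 to 1387 bp wide and wider where they held more tags. Their median was 11 tags over 785 pairs at 150 bp and 75.5 over 116 pairs of 225 to 249 bp, and the tag ratio of 36 h to MPs had medians of 0.909 and 3.52 in these classes. The Tnfrsf11a peak was 239 bp wide. Within its class, in a comparison chosen after seeing the data, its log2 change was 0.92 (interval 0.04 to 1.94, adjusted exact binomial p of 0.587). A class of width is set in part by the 36 h tags under test, so that this value says nothing about the stability of the call, and width and tags cannot be told apart here.

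The other MITF peaks were near the lower limit of the lists. At -33321 bp of Tnfrsf11a MITF had 13 tags in MPs and 10 at 36 h and was not listed in OCs, and at 84375 bp it had 9 tags in OCs alone. The Traf6 site at -27400 bp, with 9, 11 and 8 tags, was the 1 of 4 MITF sites in all 3 MITF lists, and over the genome 26.1% of MITF sites were in all 3 and 16.3% in OCs alone. Its log2 change from MPs to 36 h was -0.51 (interval -1.92 to 0.94) against the median ratio and 0.20 (interval -1.21 to 1.65) with the ratio of library sizes, so no direction can be given. From 36 h to OCs and from MPs to OCs it was the single MITF pair of the loci and was not called, where 9.66% (2.98% higher and 6.68% lower in OCs) and 0% of all pairs were called. An unadjusted exact binomial p under 0.05 was found for 591 of 2349 pairs from 36 h to OCs and 92 of 2844 from MPs to OCs.

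**Figure D4:**
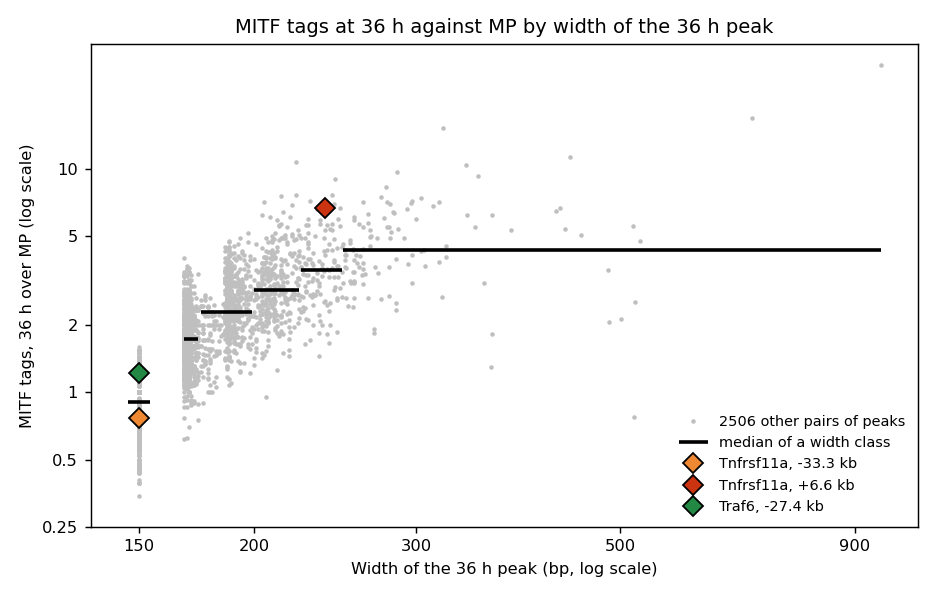
MITF tags at 36 h over MITF tags in MPs (log scale) by width of the 36 h peak (log scale) for all 2509 matched pairs, with black bars at the median of each width class. The medians rise from 0.909 at 150 bp to 4.34 at 250 bp and above, the Tnfrsf11a peak of 239 bp (red) lies above the median of its class, and the other Tnfrsf11a pair and the Traf6 pair sit at 150 bp.

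The adaptor gene had a distal PU.1 peak that in MPs was close in score to the highest of the receptor gene (158.6 and 160.3), and weak peaks at its start. Traf6 lies at chr2:101518586-101541826 on the plus strand. The site at -27390 bp, between genes and at -1507 bp from the start of B230118H07Rik, had 93, 83 and 87 PU.1 tags in MPs, at 36 h and in OCs. It is the site that also carried MITF. Its scores of 158.6, 122.7 and 127.8 were within the highest 3.86%, 5.06% and 5.2% of the lists, and the log2 change from MPs to OCs was -0.29 (interval -0.73 to 0.15). With the same window 77.61% of protein-coding genes had a highest score under 158.6. Beyond the 3' end, in an intron of Prr5l, the site at 54492 bp had 51, 71 and 62 tags and that at 56648 bp had 39, 23 and 31. The latter was lower at 36 h by -0.84 on the log2 scale (interval -1.66 to -0.06), with an adjusted exact binomial p of 0.369. Within Traf6 the intron site at 18025 bp had 23, 35 and 35 tags, and the site nearest to the start, at -115 bp, had 7, 9 and 10. The 8 Traf6 sites of all 3 lists had summed scores of 433.2, 390.2 and 392.1, and 254, 264 and 267 tags. As given above, the score of a typical pair was lower at 36 h than in MPs.

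At the ligand gene PU.1 peaks were few, and none lay at the start. Tnfsf11 lies at chr14:78677252-78707850 on the minus strand. The site at -22798 bp had 25 tags in MPs, 16 at 36 h and 17 in OCs, and its MP score of 42.6 was within the highest 29.9% of the list. The log2 change from MPs to OCs was -0.75 (interval -1.73 to 0.20, adjusted exact binomial p of 0.809). The other sites, in an intron at 12590 bp and beyond the gene at 78956 bp, had 6 tags each in MPs, the lowest count of that list, and were not listed with RANKL. No MITF peak was listed in the window of Tnfsf11.

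The decoy gene Tnfrsf11b, at chr15:54082174-54110039 on the minus strand, had 1 site of all 3 lists. At -16280 bp it had 8, 16 and 15 tags, a log2 change from MPs to OCs of 0.71 (interval -0.62 to 2.16) that did not pass (adjusted exact binomial p of 0.975). The other site, in an intron at 2726 bp, had 9 tags at 36 h alone. MITF was not listed in its window either. The ligand site and the decoy site moved in opposite directions in tags, and neither course was separable from counting error.

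Lgr4, at chr2:109757804-109854414 on the plus strand, had its highest PU.1 peaks at the starts of its neighbours. The site at -26843 bp lay at -49 bp from the start of Lin7c and had 28, 36 and 36 tags, and that at 100759 bp lay at the start of Ccdc34 and had 28, 20 and 20. The log2 change from MPs to OCs was 0.17 (interval -0.58 to 0.94) at the first and -0.68 (interval -1.58 to 0.20) at the second. In and next to Lgr4 itself, OCs alone had peaks of 9 tags at -4513 bp, 14 at 14680 bp and 10 at 41613 bp, and MPs alone 7 tags at 36503 bp. Beside Ccdc34 the site at 102191 bp had 9 tags in OCs alone, and that at 100038 bp had 8 tags at 36 h and 9 in OCs. OCs thus had the most listed peaks at Lgr4, all of the added ones with 14 tags or fewer, and no MITF peak.

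**Figure D5:**
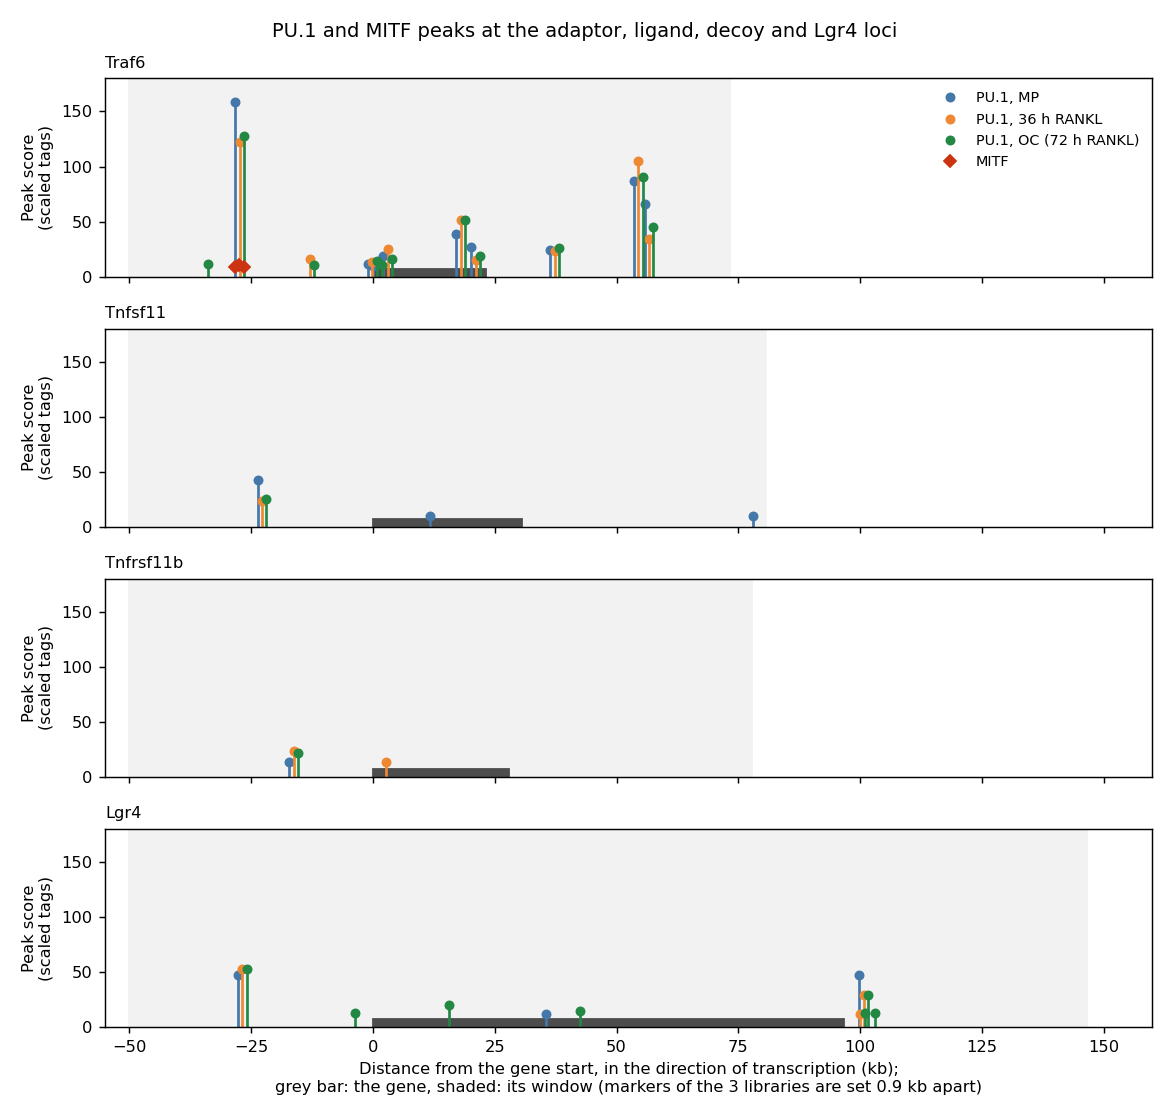
Score of each PU.1 peak in MPs (blue), at 36 h (orange) and in OCs (green), and of each MITF peak (red), by distance from the gene start of Traf6, Tnfsf11, Tnfrsf11b and Lgr4, on 1 scale. Traf6 reaches 158.6, Lgr4 53.2, Tnfsf11 42.6 and Tnfrsf11b 23.7, and MITF is seen at Traf6 alone.

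The rest of the pathway was read from lists of genes with related roles. Of 17 genes that act in RANK signalling, 12, 11 and 15 had a PU.1 peak within 1 kb of a start in MPs, at 36 h and in OCs, beside 35.3%, 37.1% and 37.9% of all protein-coding genes, the highest being at Tnfaip3 (score 162.1 in MPs), which ends NF-κB signalling. Others with high peaks were the adaptor Grb2 (129.2 in OCs), the IκB kinase Ikbkb (96.1 at 36 h) and the TAK1 partner Tab2 (90.4 in MPs). Of 8 R-spondins, R-spondin receptors and the ligases they act on, 2 had such a peak in each library, Lgr6 and Znrf3, and of 12 other TNF family genes 8 did. Of the RANK receptor, its adaptor, ligand and decoy and Lgr4, 2 of 5 did, a share near that of all genes. These were Tnfrsf11a and Traf6, and their scores there were 10.2, 17.7 and 26.4 and 11.9, 13.3 and 14.7. The test called 2 of 182 pairs higher and 1 lower at 36 h against MPs in the RANK signalling windows, 0 of 54 higher and 1 lower for the R-spondin list, and 0 of 93 for the other TNF family, beside the 1.05% of all pairs given above. From MPs to OCs these were 0 of 188, 0 of 54, and 1 of 105 lower, in the window of Cd40, a TNF receptor of antigen-presenting cells. Of all pairs 0.156% were called in that comparison, 0.0882% lower in OCs. From 36 h to OCs 1 of 191 pairs was higher in the RANK signalling windows, and 0 of 60 and 0 of 101 were called in the others. Of all pairs 0.0707% were called in that comparison, 0.0224% higher in OCs. The 1 higher pair was at Map3k7, which encodes the kinase TAK1 and was named after its values were seen. The window of Map3k7 also held the 1 RANK signalling pair called lower at 36 h against MPs, and it had no call from MPs to OCs.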

How the data were processed

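Mouse marrow cells were studied by ChIP-Seq of PU.1 and MITF in MPs, at 36 h and in OCs, with IgG in MPs (7 libraries). Per the labels, reads were handled with CASAVA 1.8, Bowtie2 and HOMER on mm9, with other versions and parameters not given in the sources used here. The authors deposited 1 peak list per library, with a score per peak. The deposited score is the number of tags scaled to a common library size. Scores were divided by the step they share to give whole tags (largest misfit 0.0511 score units). Peaks that shared 1 bp or more were paired, and tags of each pair were compared with the median ratio of all pairs by a two-sided exact binomial test with Benjamini-Hochberg adjustment over all pairs. With 1 library per condition, intervals cover counting error only. Tags may hold duplicate reads, and intervals would then be too narrow for that error as well. Gene models were GENCODE vM1, and sequence came from the NCBIM37 (mm9) assembly. Sites named were the 3 highest PU.1 sites of a locus, the site nearest to the start, those with MITF and those past the test, or all where a locus had at most 10; sites at -2464, 1234, 32765 and 84399 bp of Tnfrsf11a were named after their values were seen. Of the pathway lists at most 4 genes were named by score near the start. Members and lists were chosen with earlier results of these data known. Alternatives were other windows, scores, overlaps and ratios. Scripts were tested on simulated data, with Python 3.11.15, numpy 2.4.6, scipy 1.17.1 and matplotlib 3.10.9.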

Additional observations from a re-analysis of the deposited data

How the results depend on the processing

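No paired analysis was possible because each condition had 1 library. The window and the score threshold set most counts of sites. PU.1 sites within 10 kb numbered 13 at Tnfrsf11a, 7 at Lgr4, 5 at Traf6, 1 at Tnfsf11 and 1 at Tnfrsf11b. Lgr4 thus had more sites than Traf6 in that window, unlike in the 50 kb window. Within 100 kb PU.1 sites numbered 25 at Traf6 and 6 at Tnfsf11. Assigned to the nearest gene start they were 6 at Tnfsf11 and 4 at Lgr4. With at least 2 times the lowest score they were 7 at Traf6, 1 at Tnfsf11, 1 at Tnfrsf11b and 3 at Lgr4. MITF sites at Tnfrsf11a were 1 within 10 kb and 1 at the higher score, and at Traf6 0 within 10 kb, 2 within 100 kb, 0 by nearest start and 0 at the higher score. The 1 MITF call at 36 h against MPs became 0 at the higher score, which removes its MP peak, and 0 against pairs of like width (log2 change 0.92), a class set in part by the 36 h tags themselves, so that this loss is no measure of stability. The MITF change at Traf6 turned direction with the ratio of library sizes (0.20 from MPs to 36 h, -0.23 from 36 h to OCs, -0.033 from MPs to OCs) and, with the same limit, with pairs of like width (0.43 and -0.33). Over the genome, the calls at 36 h against MPs went from 593 to 1005 for PU.1 and from 381 to 843 for MITF with the ratio of library sizes, and MITF calls from 36 h to OCs from 227 to 898. At the higher score these MITF counts were 86 and 68, and against pairs of like width 13 and 8. The PU.1 call at 20652 bp of Tnfrsf11a held under the 5 alternatives run, with adjusted exact binomial p of 0.00546 to 0.0235. Of the 48 sites, those nearest to the window's limit lay 48358 bp from Tnfsf11 (6 tags) inside it, and the next outside was at 55177 bp (9 tags). Depth limits what can be seen, since peaks under 6 to 10 tags are not listed.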
